A study of Mus musculus with 9 samples.

Results

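Hyaluronan is a long, unbranched sugar polymer of the skin's extracellular matrix. It is spun out at the plasma membrane by the hyaluronan synthases, cut into shorter chains by hyaluronidases and by the hyaluronan-depolymerizing protein encoded by Cemip, and held at cell surfaces and in the matrix by binding proteins such as CD44. In skin, both keratinocytes and dermal fibroblasts make it, and it is known for holding water and for its rapid turnover during inflammation and repair. The 9 genes described here cover these 3 roles: the synthases Has1, Has2 and Has3, the breakdown genes Cemip, Hyal1 and Hyal2, and the binding genes Cd44, Hmmr and Tnfaip6. They were taken by gene symbol out of 29205 genes in the table, and all 9 were found. The set was chosen by a pattern seen in these data, namely that Cemip and Has2 lie on opposite sides between the IMQ and LYS libraries, so values of that contrast are described without a test.

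The study asked how Longkui Yinxiao soup (LYS), a herbal decoction, acts on psoriasis-like skin. Imiquimod (IMQ) activates Toll-like receptors, and a cream with it produces psoriasis-like lesions on mouse skin. Back skin RNA was sequenced in 3 groups of 3 libraries each. All animals were male BALB/c mice of 6 to 8 weeks that had 7 days to acclimate, and in all of them, controls included, the back was shaved and depilated. The control group received no IMQ cream, and the study's methods name no vehicle cream or sham gavage for it. The IMQ group received 62.5 mg of 5% (w/w) IMQ cream each day for 5 days. The LYS group received the same cream and in addition LYS by gavage, at the high dose of the study's methods. There was no sequenced group that received LYS without IMQ, so each comparison of LYS with control holds both treatments. Skin was collected on day 13.

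The summed counts ranged from 14658645 to 19609878 per library. The tissue markers of skin were present in every group, since no gene of the basal or suprabasal keratinocyte lists and none of the dermal fibroblast list was at 0 in all libraries of a group. Whole skin was sequenced, so fewer cells of a type and less RNA per cell cannot be told apart in any value below. The labels do not say which animals the libraries came from, and p-values measure the spread between these libraries.

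Levels were compared as CPM (counts scaled to library size) after TMM scaling, and changes as log2 fold changes with their standard error (SE) from edgeR's quasi-likelihood test, with p-values adjusted by the Benjamini-Hochberg method over all genes tested. A differentially expressed gene (DEG) had an adjusted p under 0.05 and changed by more than 0.58 on the log2 scale, in either direction. Comparing IMQ with control libraries, 8 of the 9 genes were DEGs, and 51.0% of the 15976 genes tested were DEGs as well. Has3, Cemip, Hyal1, Hyal2 and Cd44 rose, against 24.1% of all genes tested, and Has2, Hmmr and Tnfaip6 fell, against 26.9%. Comparing LYS with control libraries, 6 of the 9 were DEGs, against 28.0% of 16003 genes tested. These were Has2, Has3, Cemip, Hyal1, Hyal2 and Cd44. All 6 rose, against 15.1% of all genes, and 0 fell, against 12.9%. No member was lower than control at an unadjusted p under 0.05 either (0 genes), and DESeq2 also called 6 higher and 0 lower. Has2 was therefore called below control in the IMQ group and above control in the LYS group. Both comparisons share the control libraries, and each shares libraries with the contrast by which the genes were chosen.

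**Figure D1:**
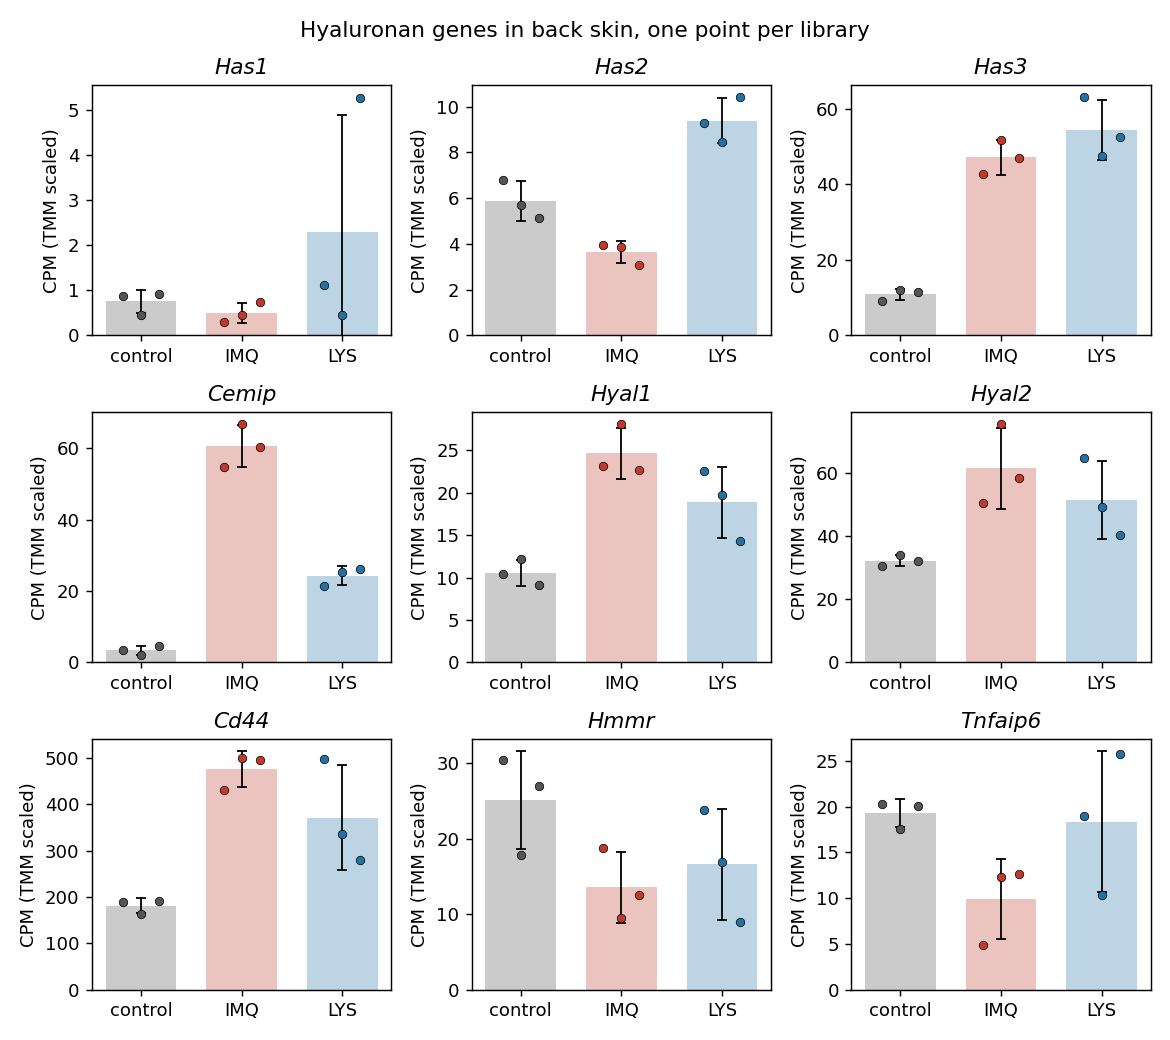
Expression of the 9 hyaluronan genes in each library. The vertical axis is TMM-scaled CPM, with its own range for each gene and starting at 0; bars show the mean of 3 libraries, error bars the SD and points the libraries. The 3 IMQ libraries lie below all control libraries for Has2 (3.08 to 3.95 CPM) and above them for Cemip (54.8 to 66.7 CPM), and the 3 LYS libraries lie above the control libraries for both genes.

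Has2 encodes the synthase that is the main maker of hyaluronan in the embryo and in fibroblasts (ENSMUSG00000022367, chr15:56665627-56694539, minus strand, GRCm38). Its level was 6.81, 5.68 and 5.11 CPM in the control libraries, 3.95, 3.87 and 3.08 CPM in the IMQ libraries and 9.28, 8.47 and 10.4 CPM in the LYS libraries. The 3 groups did not overlap, with the IMQ libraries lowest and the LYS libraries highest. Compared with the control group, Has2 fell in the IMQ group by 0.70 on the log2 scale (SE 0.22, edgeR adjusted p = 0.0252). It rose in the LYS group by 0.68 (SE 0.19, edgeR adjusted p = 0.0319). Both calls were near the threshold. The fall was no longer called when control 1, control 2, IMQ 2 or IMQ 3 was left out, with log2 fold changes of -0.59, -0.72, -0.73 and -0.58, or with a minimum log2 fold change of 1, and its adjusted p ran from 0.00386 to 0.101 over 14 alternatives. The rise lost its call in 9 of 14 alternatives, among them a scaling by library totals (0.55), the replicate block (0.69) and the leaving out of any library except LYS 1, with adjusted p-values from 0.0178 to 0.104 and log2 fold changes from 0.55 to 0.79. The direction of both differences was the same in all of these alternatives.

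The counts behind Has2 were low. They were 105 to 141 reads in the control libraries, 42 to 65 in the IMQ libraries and 133 to 182 in the LYS libraries. Its exons share 182 bases with those of Has2os, an antisense RNA, and the library kit does not mark strand, so reads from the shared bases cannot be told apart. Has2os itself held 21 to 39 reads in the control libraries, 3 to 9 in the IMQ libraries and 6 to 26 in the LYS libraries. Between the LYS and IMQ groups, the log2 difference in Has2 was 1.44 (SE 0.22), which the choice of genes used and which was therefore not tested. In that comparison 0.0% of 15460 genes were DEGs, with 5435 at an unadjusted p under 0.05 and a smallest adjusted p of 0.0591, while DESeq2 called 3319 genes. The count without LYS 1 was 4262 genes and without IMQ 1 it was 1873.

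Has3 encodes the synthase that is prominent in keratinocytes (ENSMUSG00000031910, chr8:106870242-106884566, plus strand). Control libraries held 9.18, 11.9 and 11.6 CPM, IMQ libraries 42.6, 51.8 and 46.9 CPM and LYS libraries 63.1, 47.5 and 52.4 CPM. Every IMQ and LYS library was above every control library, and the IMQ and LYS libraries overlapped. Has3 rose by 2.10 on the log2 scale in the IMQ group (SE 0.15, edgeR adjusted p = 2.87e-05) and by 2.32 in the LYS group (SE 0.18, edgeR adjusted p = 0.000298). Both calls held in all 14 alternatives. The LYS group differed from the IMQ group by 0.27 (SE 0.14), so this synthase, unlike Has2, was above control in both groups given IMQ. Its exons share 352 bases with those of Chtf8 on the opposite strand, and reads from these bases cannot be told apart either. The Chtf8 entry ENSMUSG00000046691 held 0 to 8 reads per library.

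Has1 was the synthase with the fewest reads (ENSMUSG00000003665, chr17:17843323-17855205, minus strand). It was at 0.869, 0.462 and 0.925 CPM in the control libraries, 0.304, 0.447 and 0.733 CPM in the IMQ libraries and 1.12, 0.452 and 5.27 CPM in the LYS libraries, which are 5 to 92 reads. LYS 3 stood far above the other 8 libraries. Neither the log2 difference of -0.62 in the IMQ group (SE 0.48, edgeR adjusted p = 0.292) nor that of 1.60 in the LYS group (SE 0.83, edgeR adjusted p = 0.174) passed the test, and the latter was 0.05 without LYS 3. Has1 did not pass the expression filter between the LYS and IMQ groups.

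The make-up of the synthase transcripts was compared per length, with the deposited FPKM. Has3 held 44.4%, 56.3% and 56.3% of the summed Has1, Has2 and Has3 FPKM in the control libraries, 87.0%, 88.9% and 89.2% in the IMQ libraries and 80.2%, 78.0% and 69.4% in the LYS libraries. The share was thus higher in every library of both groups given IMQ than in any control library. The mean share was 52.3% ± 6.86 (SD, n = 3) in the control group, 88.4% ± 1.20 (SD, n = 3) in the IMQ group and 75.9% ± 5.74 (SD, n = 3) in the LYS group. The differences from control were 36.0 percentage points for the IMQ group and 23.5 for the LYS group. A two-sided exact permutation test gave p = 0.1 for each (adjusted p = 0.1), the smallest p that 3 against 3 libraries allow, so neither could pass 0.05. The share of Has2 was 42.5% ± 6.36 (SD, n = 3) in the control group, 10.3% ± 1.68 (SD, n = 3) in the IMQ group and 19.8% ± 1.80 (SD, n = 3) in the LYS group. In sum, the 3 synthases were at 3.74 ± 0.114 FPKM, 6.96 ± 0.286 FPKM and 11.7 ± 1.49 FPKM (SD, n = 3) in the control, IMQ and LYS groups. FPKM has no TMM scaling. As TMM-scaled CPM per kilobase, the sums were 3.26 ± 0.0411, 8.35 ± 0.728 and 11.2 ± 1.49 (SD, n = 3), with IMQ and LYS closer together.

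Cemip encodes a secreted protein that depolymerizes hyaluronan and is studied in skin fibroblasts (ENSMUSG00000052353, chr7:83932857-84086502, minus strand). Its level was 3.62, 2.03 and 4.53 CPM in the control libraries, 54.8, 66.7 and 60.2 CPM in the IMQ libraries and 21.4, 25.4 and 26.2 CPM in the LYS libraries. The 3 groups did not overlap, and the LYS libraries lay between the others. Cemip rose by 4.15 on the log2 scale in the IMQ group (SE 0.27, edgeR adjusted p = 1.98e-05), the largest change among the 9 genes, and by 2.84 in the LYS group (SE 0.29, edgeR adjusted p = 0.000833). Both calls held in all 14 alternatives, with log2 fold changes from 3.69 to 4.41 and from 2.56 to 3.11. Between the LYS and IMQ groups, the log2 difference was -1.25 (SE 0.14), again without a test.

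The 250 bases before the start of Cemip are shown because this gene had the largest change of the set. The sequence is from RefSeq (GRCm38.p6, chr7:84086506-84086755, minus strand), written 5′ to 3′ along the gene, and capitals mark matches to the motifs searched. These were the TATA box TATAAA, the CCAAT box (those 5 letters), the AP-1 motif TGANTCA, the STAT motif TTCNNNGAA, the TCF core TTTGAA and the GC box GGGCGG, each on both strands, so that a match on the other strand reads as the reverse complement.
Cemip: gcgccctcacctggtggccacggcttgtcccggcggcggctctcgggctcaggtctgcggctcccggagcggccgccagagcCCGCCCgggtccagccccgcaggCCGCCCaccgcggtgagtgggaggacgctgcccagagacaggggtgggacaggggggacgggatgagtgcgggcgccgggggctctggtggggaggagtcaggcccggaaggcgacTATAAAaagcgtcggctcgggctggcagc
A TATAAA lay 29 to 24 bases before the start. That motif was found in 12.4% of 32851 promoters of this length, and in 1.99% with its first base 40 to 20 bases before the start on the strand of the gene, a window chosen after the match was seen. The upstream sequence also held 2 matches to GGGCGG, a motif of 32.7% of promoters, and its GC content was 75.2% against a median of 52.4% over all promoters. The other 4 motifs were not in these letters. Of the 9 genes, 7 had a sequence in the table used. Has2 and Has3 did not.

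Because Cemip and Has2 went opposite ways, the ratio of their FPKM was taken in each library, a measure chosen after the values were seen and given without a test. It was 0.184, 0.124 and 0.307 in the control libraries, 4.81, 5.97 and 6.78 in the IMQ libraries and 0.797, 1.04 and 0.870 in the LYS libraries. Transcripts of Cemip thus exceeded those of Has2, per length, in all IMQ libraries, and were fewer in all control libraries. They did not exceed those of Has3 in the IMQ libraries (3.97 to 4.31 FPKM for Cemip and 5.93 to 6.41 FPKM for Has3). The lower ratio in the LYS than in the IMQ libraries follows from the choice of genes. In the LYS libraries Cemip and Has2 were at similar levels.

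**Figure D2:**
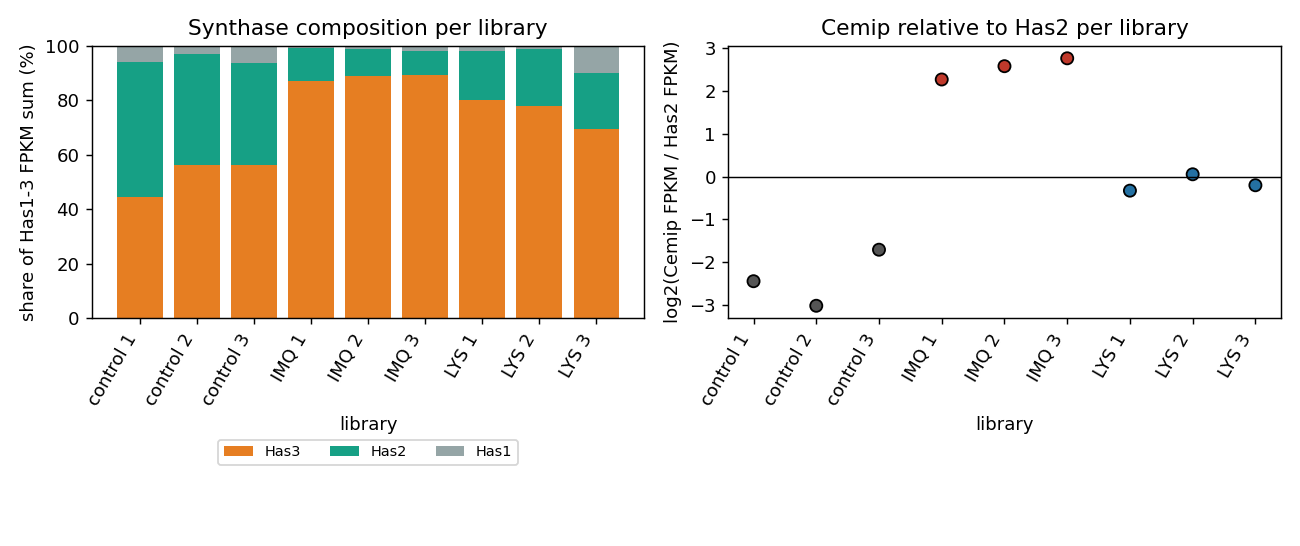
Left, the share of each synthase in the summed Has1, Has2 and Has3 FPKM of each library, in percent; right, the log2 of the Cemip to Has2 FPKM ratio in each library, with 0 marking equal FPKM. Has3 holds 87.0% to 89.2% in the IMQ libraries, and the ratio is above 0 in the 3 IMQ libraries, below 0 in the 3 control libraries and near 0 in the LYS libraries (-0.33, 0.06 and -0.20).

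Hyal2 encodes a membrane-anchored hyaluronidase that cuts long chains (ENSMUSG00000010047, chr9:107567945-107572779, plus strand). It was at 30.7, 34.2 and 32.1 CPM in the control libraries, 50.6, 75.7 and 58.5 CPM in the IMQ libraries and 64.9, 49.3 and 40.5 CPM in the LYS libraries. All libraries given IMQ were above all control libraries. Hyal2 rose by 0.92 on the log2 scale in the IMQ group (SE 0.15, edgeR adjusted p = 0.00131) and by 0.68 in the LYS group (SE 0.19, edgeR adjusted p = 0.0298). The first call was lost with a minimum log2 fold change of 1 and with library totals (0.46), a scaling that moved the median of all genes by -0.45 (log2) in that comparison. The call in the LYS group was lost in 8 of 14 alternatives, including library totals (0.52), the replicate block (0.65) and the leaving out of any library except LYS 3, with adjusted p-values from 0.00935 to 0.0954.

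Hyal1 encodes the lysosomal hyaluronidase (ENSMUSG00000010051, chr9:107576927-107581710, plus strand), next to Hyal2. Its values are uncertain, because 1920 of its 3777 exon bases are also exon of Naa80 on the same strand and 159 are shared with Hyal3. The control libraries held 10.4, 12.1 and 9.16 CPM, the IMQ libraries 23.1, 28.1 and 22.7 CPM and the LYS libraries 22.5, 19.7 and 14.3 CPM. The 3 groups did not overlap in CPM, although IMQ 3 and LYS 1 were almost equal. In FPKM the IMQ libraries (4.85 to 5.87) and the LYS libraries (4.17 to 5.83) did overlap. The gene rose by 1.21 on the log2 scale in the IMQ group (SE 0.16, edgeR adjusted p = 0.000427), a call kept in all 14 alternatives, and by 0.84 in the LYS group (SE 0.22, edgeR adjusted p = 0.0229). The latter was lost without control 1, control 3 or LYS 2, with log2 fold changes of 0.81, 0.75 and 0.82, and with a minimum log2 fold change of 1, and had adjusted p-values from 0.00471 to 0.0788. Naa80 held 293 to 391 reads in the control libraries, 439 to 561 in the IMQ libraries and 350 to 469 in the LYS libraries.

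Between the LYS and IMQ groups, the log2 differences of Hyal1 and Hyal2 were -0.32 (SE 0.19) and -0.19 (SE 0.20). Both were smaller in size than that of Cemip, and neither was tested. With library totals in place of TMM scaling, the differences were -0.07 for Hyal1 and 0.06 for Hyal2, so they depended on the scaling.

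Cd44 encodes the main hyaluronan receptor of keratinocytes and leukocytes and had the highest level of the set (ENSMUSG00000005087, chr2:102811141-102901665, minus strand). It was at 189, 163 and 192 CPM in the control libraries, 431, 500.2 and 496 CPM in the IMQ libraries and 498, 336 and 281 CPM in the LYS libraries. The libraries given IMQ, with or without LYS, were all above the control libraries. Cd44 rose by 1.38 on the log2 scale in the IMQ group (SE 0.14, edgeR adjusted p = 0.000106), in all 14 alternatives, and by 1.04 in the LYS group (SE 0.23, edgeR adjusted p = 0.0141). The call in the LYS group was lost without control 1 (1.05) or control 2 (0.94), with adjusted p-values up to 0.0532. The difference between LYS and IMQ was -0.30 (SE 0.22), or -0.05 with library totals, and LYS 1 lay within the range of the IMQ libraries.

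Hmmr encodes a hyaluronan-binding protein that is also a spindle protein of dividing cells (ENSMUSG00000020330, chr11:40701395-40733422, minus strand). Control libraries were at 30.5, 17.9 and 26.9 CPM, IMQ libraries at 18.7, 9.46 and 12.6 CPM and LYS libraries at 23.8, 16.9 and 9.0 CPM. The groups overlapped, since control 2 was below IMQ 1. Hmmr fell by 0.88 on the log2 scale in the IMQ group (SE 0.29, edgeR adjusted p = 0.0275), a call lost in 6 of 14 alternatives: all 9 libraries in a single fit (-0.88), a minimum log2 fold change of 1, and the leaving out of control 1 (-0.74), control 3 (-0.83), IMQ 2 (-0.67) or IMQ 3 (-0.82). Its adjusted p ran from 0.00288 to 0.0981. In the LYS group the log2 difference from control was -0.59 (SE 0.36, edgeR adjusted p = 0.237), which did not pass. The difference between LYS and IMQ was 0.34 (SE 0.39).

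Tnfaip6 encodes TSG-6, a secreted protein that binds hyaluronan and transfers heavy chains to it in inflamed matrix (ENSMUSG00000053475, chr2:52038009-52056686, plus strand). It was at 20.3, 17.6 and 20.1 CPM in the control libraries, 4.86, 12.3 and 12.6 CPM in the IMQ libraries and 19.0, 10.3 and 25.7 CPM in the LYS libraries. All IMQ libraries were below all control libraries, and the LYS libraries spread over both ranges. Tnfaip6 fell by 0.98 on the log2 scale in the IMQ group (SE 0.32, edgeR adjusted p = 0.0278). This call was lost in 5 of 14 alternatives, among them all 9 libraries in a single fit (-0.97) and the leaving out of control 1 (-0.95), control 2 (-1.05) or control 3 (-0.95), with adjusted p-values from 0.00336 to 0.0757. In the LYS group the log2 difference from control was -0.07 (SE 0.30, edgeR adjusted p = 0.876), and without LYS 2 its sign turned (0.22). The difference between LYS and IMQ was 0.97 (SE 0.45).

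The upstream sequences of Hmmr and Tnfaip6 are shown because these were the binding genes that fell in the IMQ group. They are from RefSeq (GRCm38.p6), at chr11:40733438-40733687 on the minus strand and chr2:52037863-52038112 on the plus strand, with the same motifs in capitals. Positions are counted from the RefSeq start. For Tnfaip6 that start lies after the gene start given above (chr2:52038009), so the last part of its stretch is inside the gene by those coordinates.
Hmmr: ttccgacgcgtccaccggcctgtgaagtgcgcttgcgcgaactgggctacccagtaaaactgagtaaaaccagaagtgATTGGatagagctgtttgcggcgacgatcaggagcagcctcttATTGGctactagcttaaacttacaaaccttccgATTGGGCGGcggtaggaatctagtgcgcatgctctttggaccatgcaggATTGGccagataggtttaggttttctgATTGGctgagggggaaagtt
Tnfaip6: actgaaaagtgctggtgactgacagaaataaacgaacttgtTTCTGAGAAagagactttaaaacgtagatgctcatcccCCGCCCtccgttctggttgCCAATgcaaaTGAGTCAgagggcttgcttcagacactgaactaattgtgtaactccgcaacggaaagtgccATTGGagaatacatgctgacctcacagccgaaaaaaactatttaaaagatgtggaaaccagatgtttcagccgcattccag
Hmmr held 5 matches to the CCAAT box, all on the other strand, of which 1 shares bases with a GC box. A CCAAT box was found in 33.9% of promoters, and 5 or more in 0.213%, a number chosen after the matches were seen. Tnfaip6 held a match to TGANTCA, the AP-1 motif, at 142 to 136 bases before the start, and a match to TTCNNNGAA, the STAT motif, at 209 to 201 bases. Those motifs were in 6.75% and 7.02% of promoters. Tnfaip6 also held 2 CCAAT boxes and 1 GC box. None of these matches shows that a factor binds there.

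**Figure D3:**
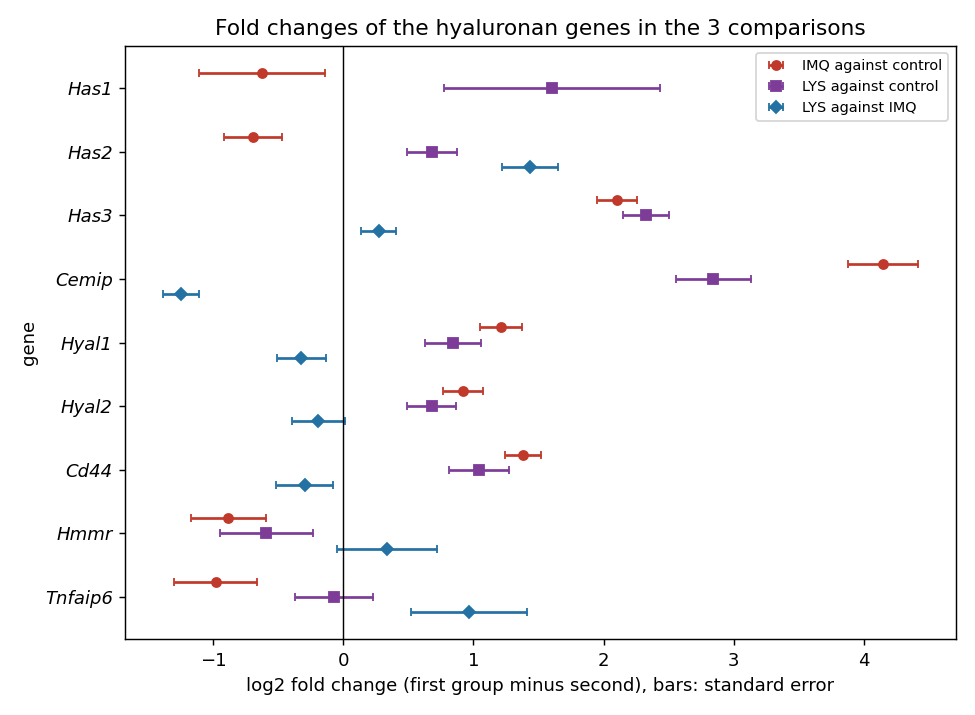
Log2 fold changes of the 9 genes in the 3 comparisons, with horizontal bars for the SE and a line at 0. Cemip has the largest value in the IMQ group compared with control (4.15), Has2 lies on opposite sides of 0 for IMQ (-0.70) and LYS (0.68), and the values of LYS against IMQ are descriptions without a test; Has1 has none there.

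Per length, the order of the 9 genes differed between the groups. In the control group Cd44 led with 30.8 ± 3.85 FPKM (SD, n = 3), followed by Tnfaip6 at 13.0 ± 1.46 FPKM and Hyal2 at 11.3 ± 0.547 FPKM, whose ranges overlapped. Hmmr followed at 5.33 ± 1.49 FPKM and Hyal1 at 3.20 ± 0.328 FPKM, each apart from its neighbours. Has3 at 1.96 ± 0.279 FPKM and Has2 at 1.59 ± 0.216 FPKM overlapped, as did Cemip at 0.322 ± 0.131 FPKM and Has1 at 0.193 ± 0.0702 FPKM. In control skin, therefore, transcripts of Cemip were near the bottom of the order.

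In the IMQ group Cd44 was at 58.5 ± 0.522 FPKM (SD, n = 3), Hyal2 at 15.5 ± 2.28 FPKM and Has3 at 6.15 ± 0.240 FPKM, with no overlap between neighbours. Hyal1 at 5.44 ± 0.528 FPKM, Tnfaip6 at 4.74 ± 1.86 FPKM and Cemip at 4.13 ± 0.169 FPKM came next, and each overlapped with the following one. Hmmr at 2.13 ± 0.917 FPKM, Has2 at 0.720 ± 0.133 FPKM and Has1 at 0.0902 ± 0.0362 FPKM closed the order without overlap between neighbours. Hmmr (1.38 to 3.15 FPKM) did overlap with Tnfaip6 (2.60 to 5.95 FPKM), which was not its neighbour. By the means, Has3 had moved above Tnfaip6, and Cemip above Has2 and Hmmr. The ranges of Has3 and Tnfaip6 overlapped, since in IMQ 3 Tnfaip6 was at 5.946 FPKM and Has3 at 5.93 FPKM.

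In the LYS group Cd44 was at 56.6 ± 13.7 FPKM (SD, n = 3). Hyal2 at 16.2 ± 2.89 FPKM, Tnfaip6 at 11.3 ± 5.09 FPKM and Has3 at 8.85 ± 0.914 FPKM followed, with overlap between neighbours. Hyal1 at 5.17 ± 0.885 FPKM, Hmmr at 3.13 ± 1.24 FPKM, Has2 at 2.32 ± 0.334 FPKM and Cemip at 2.09 ± 0.337 FPKM also overlapped from each to the next, and Has1 was last at 0.543 ± 0.644 FPKM. Has2 and Cemip were thus neighbours that could not be told apart in this group.

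The other genes of the hyaluronan pathway were described from a list of 40 genes in 6 roles, of which 38 were in the table under these symbols and Hyal5 and Spam1 were not. In the IMQ group compared with control, 24 passed the expression filter, 3 of them rose and 14 fell (24.1% and 26.9% of all genes tested did), and the median log2 fold change was -0.89 against -0.06 over all genes tested. In the LYS group compared with control, 25 passed, 5 rose and 8 fell (15.1% and 12.9% of all genes tested did), with a median of -0.22 against -0.01. Between LYS and IMQ, 22 passed and 0 were DEGs, although 13 were higher and 2 lower at an unadjusted p under 0.05 and DESeq2 called 13 higher and 1 lower. The genes that passed through a high level in 1 group only had to differ, so these counts describe the tested genes and not the whole list.

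Of the genes for the UDP-sugar precursors of hyaluronan, 4 of 6 tested fell in the IMQ group, where 26.9% of all genes tested fell. The other two, Gfpt1 and Ugp2, differed by 0.15 (edgeR adjusted p = 0.506) and -0.32 (edgeR adjusted p = 0.120). Gfpt2, an isoform of the enzyme that starts hexosamine synthesis, was at 59.3 ± 8.66 CPM in the control group and 10.3 ± 3.12 CPM in the IMQ group (SD, n = 3; log2 fold change -2.53, SE 0.22, edgeR adjusted p = 5.88e-05). It was at 14.8, 33.1 and 80.8 CPM in the LYS libraries, which spread below and above the control libraries (edgeR adjusted p = 0.513 against control). Ugdh, which makes UDP-glucuronic acid, fell in both groups, from 96.0 ± 8.46 CPM to 29.0 ± 2.21 CPM with IMQ alone (edgeR adjusted p = 2.49e-05) and 49.9 ± 8.50 CPM with IMQ and LYS (SD, n = 3; edgeR adjusted p = 0.00438). Uap1, which makes UDP-N-acetylglucosamine, fell by 1.10 on the log2 scale in the IMQ group (SE 0.15, edgeR adjusted p = 0.000542) and differed by -0.45 in the LYS group (SE 0.17, edgeR adjusted p = 0.0802). The 4 falls stood beside a summed synthase FPKM that was above control in every library given IMQ.

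Of the other hyaluronidases and the Cemip-related surface protein, 2 of 6 were tested. Hyal4, which encodes an enzyme that cuts chondroitin sulfate in the main, rose from 2.22 ± 0.574 CPM in the control group to 20.8 ± 7.27 CPM in the IMQ group and 6.06 ± 0.894 CPM in the LYS group (SD, n = 3), with log2 fold changes of 3.21 (SE 0.31, edgeR adjusted p = 9.87e-05) and 1.45 (SE 0.27, edgeR adjusted p = 0.00692). Cemip2, the surface protein related to Cemip, was at 20.9 ± 3.25 CPM, 19.7 ± 0.706 CPM and 32.7 ± 1.27 CPM (SD, n = 3) in the control, IMQ and LYS groups. It rose in the LYS group by 0.65 (SE 0.15, edgeR adjusted p = 0.0171), while its difference of -0.09 in the IMQ group (SE 0.15, edgeR adjusted p = 0.623) did not pass.

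The lysosomal exoglycosidases remove sugars from the ends of hyaluronan fragments. Hexa and Gusb fell in the IMQ group by 0.84 (SE 0.19, edgeR adjusted p = 0.00641) and 0.76 (SE 0.18, edgeR adjusted p = 0.00649). In the LYS group their differences of 0.38 and 0.20 did not pass (edgeR adjusted p = 0.343 and 0.413).

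All 6 tested genes of the 15 matrix and plasma binding partners fell in both groups, where 26.9% (IMQ) and 12.9% (LYS) of all genes tested fell. Some of the 6, such as Acan, passed the filter through the control libraries alone and could only fall. Vcan, the proteoglycan versican, was at 237 ± 26.9 CPM in the control group, 13.0 ± 10.6 CPM in the IMQ group and 66.6 ± 13.1 CPM in the LYS group (SD, n = 3), with log2 fold changes of -4.18 (SE 0.52, edgeR adjusted p = 0.000315) and -1.83 (SE 0.18, edgeR adjusted p = 0.000767). Ptx3, a pentraxin that crosslinks hyaluronan together with TSG-6, changed by -3.86 (SE 0.35, edgeR adjusted p = 6.69e-05) and -1.99 (SE 0.31, edgeR adjusted p = 0.00360). It held 211, 129 and 126 reads in the control libraries, 8, 6 and 8 in the IMQ libraries and 25, 40 and 27 in the LYS libraries. The size of its fall in the IMQ group is therefore uncertain. Acan, the proteoglycan aggrecan, held 395, 504 and 669 reads in the control libraries, 12, 0 and 0 in the IMQ libraries and 0, 2 and 4 in the LYS libraries. With so few reads left after treatment, no fold change is given for it.

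Among the other receptors, Lyve1, the hyaluronan receptor of lymphatic vessels and some macrophages, fell from 64.1 ± 16.2 CPM to 8.33 ± 4.46 CPM in the IMQ group (SD, n = 3; log2 fold change -2.96, SE 0.37, edgeR adjusted p = 0.000297). It was at 37.5 ± 10.3 CPM in the LYS group (SD, n = 3; -0.77, SE 0.25, edgeR adjusted p = 0.0509). Layn, which encodes layilin, fell in the IMQ group by 1.86 (SE 0.36, edgeR adjusted p = 0.00272) and differed by -0.22 in the LYS group (SE 0.27, edgeR adjusted p = 0.572). Tlr2, a pattern receptor that can respond to hyaluronan fragments, rose in both, by 1.66 (SE 0.22, edgeR adjusted p = 0.000420) and 2.15 (SE 0.26, edgeR adjusted p = 0.00147). Of the remaining binders, Habp4 and C1qbp were not DEGs in either group, with log2 fold changes of -0.44 and -0.25 in the IMQ group and -0.21 and -0.30 in the LYS group.

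**Figure D4:**
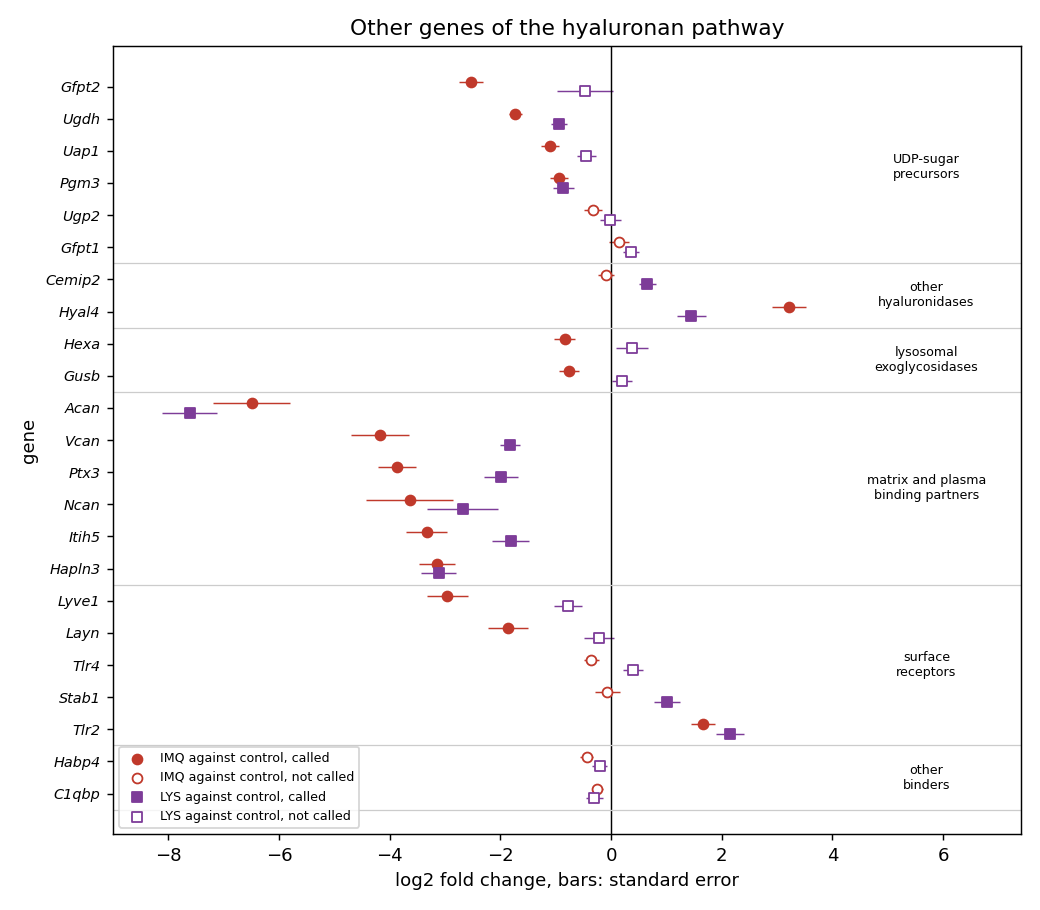
Log2 fold changes against control of pathway genes tested in the IMQ group, by role, with bars for the SE. Filled symbols are DEGs and open symbols are not; circles are the IMQ group and squares the LYS group. The 6 matrix and plasma binding partners lie below 0 in both groups, and Hyal4 and Tlr2 lie above 0 in both. Some of the 6, such as Acan, passed the filter through the control libraries alone and could only fall.

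Genes whose levels followed those of Cemip and Has2 most closely were ranked by Pearson r of log2(CPM + 1) over the 9 libraries, among 14763 genes. The libraries share the group differences, so r contains them, and no p is given. The 5 nearest to Cemip were Serpinb6c (r = 0.994), Il1f8 (0.993), Dnase1l2 (0.992), 2310022A10Rik (0.992) and Serpinb11 (0.991). Il1f8, which encodes the cytokine IL-36β, was at 24.6 ± 6.47 CPM in the control group, 451 ± 85.3 CPM in the IMQ group and 198 ± 21.0 CPM in the LYS group (SD, n = 3). Dnase1l2, which encodes a DNase of cornifying keratinocytes, was at 26.6 ± 4.17 CPM, 475 ± 105 CPM and 170 ± 12.3 CPM (SD, n = 3). Like Cemip, both were highest in the IMQ group and intermediate in the LYS group, which follows from the ranking by r.

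The 5 nearest to Has2 were Arpc1b (r = 0.981), Sting1 (0.977), Vwa1 (0.959), Gnai2 (0.957) and Adgre5 (0.957). Arpc1b, a subunit of the Arp2/3 actin complex, was at 280 ± 35.4 CPM in the control group, 224 ± 11.6 CPM in the IMQ group and 373 ± 12.0 CPM in the LYS group (SD, n = 3). Sting1, an adaptor of cytosolic DNA sensing, was at 19.7 ± 2.80 CPM, 14.8 ± 1.11 CPM and 29.4 ± 2.97 CPM (SD, n = 3). Both had the order of Has2, with the IMQ group lowest and the LYS group highest, which follows from the ranking by r. With library totals in place of TMM scaling, 3 of these 5 stayed among the nearest to Has2.

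Markers of several cell types moved with the groups, and their part in the differences above was not tested. Of all genes tested, 24.1% rose and 26.9% fell in the IMQ group, and 15.1% rose and 12.9% fell in the LYS group. Of 6 dermal fibroblast markers, among them Col1a1, Pdgfra and Dcn, all 6 fell in the IMQ and 2 in the LYS group, and their summed level was 21496.5 to 27354.1 CPM in the control libraries, 3276.5 to 10536.3 CPM in the IMQ libraries and 9016.0 to 17414.8 CPM in the LYS libraries. The sum was mostly 3 collagen genes. Pdgfra was at 146 ± 18.8 CPM in the control group, 39.9 ± 18.9 CPM in the IMQ group and 161 ± 34.9 CPM in the LYS group (SD, n = 3), and Dcn differed from control in the LYS group by -0.23 (SE 0.26, edgeR adjusted p = 0.528). Like Has2, all 6 markers were called below control in the IMQ group. In the LYS group, where Has2 was called above control, 0 of the 6 were, and their median log2 fold change was -0.51. Col1a1 differed from control there by -1.01 (SE 0.32, edgeR adjusted p = 0.0446). Of 5 basal keratinocyte markers (Krt5, Krt14 and Trp63 among them), 5 rose in the IMQ and 4 in the LYS group, with sums of 1836.6 to 2778.4, 10599.0 to 12455.8 and 7115.7 to 12854.7 CPM in the control, IMQ and LYS libraries. Of 5 suprabasal markers (Krt1 and Krt10 among them), 5 and 4 rose, with sums of 3636.9 to 6246.7, 25168.1 to 40530.1 and 8656.7 to 16877.1 CPM. Both keratinocyte sums were above control in every library given IMQ, as were Has3, Cemip, Hyal1, Hyal2 and Cd44. The leukocyte and myeloid sum given below was too. Between IMQ and LYS the keratinocyte lists differed from one another, since the LYS against IMQ median was -0.21 for the basal and -1.43 for the suprabasal list.

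Of 7 leukocyte and myeloid markers, 3 rose and 1 fell in the IMQ group and 4 rose in the LYS group, with sums of 882.1 to 1437.0 CPM in the control libraries, 21845.1 to 29075.4 CPM in the IMQ libraries and 8321.7 to 18375.3 CPM in the LYS libraries. Most of the sum after IMQ was S100a8 and S100a9, which keratinocytes also express, at 15.2 and 15.8 CPM on average in the control group, 11936.0 and 13800.1 CPM in the IMQ group and 5871.8 and 6995.5 CPM in the LYS group. Cxcr2 was the other marker that rose in the IMQ group (edgeR adjusted p = 8.44e-06). It was at 4.01, 111 and 67.8 CPM on average in the control, IMQ and LYS groups. Lyz2 was the marker that fell in the IMQ group, with means of 928, 586 and 1675.2 CPM in that order. Ptprc, the pan-leukocyte marker CD45, was at 63.0 ± 15.7 CPM, 78.0 ± 1.86 CPM and 172 ± 40.7 CPM (SD, n = 3) in the same order. Against control it rose by 1.45 in the LYS group (SE 0.24, edgeR adjusted p = 0.00478) and differed by 0.30 in the IMQ group (SE 0.17, edgeR adjusted p = 0.165). Itgam was at 30.2, 27.3 and 57.3 CPM on average and was not a DEG in either. Of 7 cell division markers (Mki67, Top2a and Cdk1 among them), 6 fell in the IMQ and 5 in the LYS group, with sums of 467.5 to 671.4, 172.5 to 354.5 and 175.6 to 399.4 CPM in the control, IMQ and LYS libraries. Hmmr was also called lower in the IMQ group, a call lost in some alternatives, and was not called in the LYS group (edgeR adjusted p = 0.237). Of 4 endothelial markers, 4 fell in the IMQ group, while their median log2 fold change was -0.21 with LYS, with sums of 330.3 to 475.6, 129.2 to 265.0 and 254.5 to 500.2 CPM, and Lyve1 was also called lower in the IMQ group. The 4 hair follicle markers fell in both groups, from sums of 1692.9 to 3627.9 CPM in the control libraries to at most 0.911 CPM in the IMQ libraries and 0.907 CPM in the LYS libraries, and Krt35 was at 0 in all IMQ libraries. The 3 adipocyte markers fell in both groups, with sums of 1098.4 to 3010.4, 82.8 to 399 and 371 to 1032.2 CPM, and of the 3 skeletal muscle markers 3 fell in the IMQ and 1 in the LYS group, with sums of 6658.6 to 7207.0, 1138.5 to 3140.8 and 2951.9 to 6321.5 CPM.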

How the data were processed

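TRIzol was used to extract back skin RNA, and the NEBNext Ultra RNA kit, which does not mark strand, to prepare libraries. HISAT2, HTSeq 0.13.5 and GRCm38 are named in the submitters' processing notes, and the strand setting of the counting is not given in the sources used here. The authors deposited a table of 29205 genes with a raw count and an FPKM for each library. The deposited FPKM of the 9 genes matched the GENCODE M21 exon length, and 0 columns had no sample. No library repeated another of its group (chi-square over degrees of freedom 16.9 to 100 between their counts), so each was kept as a sample.

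Counts were tested with edgeR 4.0.16 in R 4.3.3 (TMM, filterByExpr, quasi-likelihood test, Benjamini-Hochberg adjustment over all genes tested), with only the 6 compared libraries in a fit and no replicate block. The thresholds are those of the study's methods. DESeq2 1.42.0, other scalings, filters, thresholds and libraries were alternatives. The tests were checked on simulated data. FPKM was used for levels between genes, for the synthase sum and for shares, the Has3 share with exact permutation tests in scipy 1.17.1. Plots used matplotlib 3.10.9 under Python 3.11.15.

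The members and lists were chosen with earlier results of these data known. Krt35, Has2os, Naa80, Chtf8, S100a9, Cxcr2, Lyz2, Gfpt1 and Ugp2 were named after their values were seen. By rule, the genes named are all members, the 3 pathway genes of each role with the largest change in the IMQ group among those tested, the 5 genes most like Cemip and the 5 most like Has2 with a mean CPM of at least 1, and the first 3 genes of a marker list. A pathway gene under this rule is not reported here, though the counts of the list include it. Replicate numbers were checked as pairs: deviations of same-numbered libraries from their group means correlated at 0.01, -0.06 and 0.20 for IMQ with control, -0.12, 0.02 and -0.38 for LYS with control and -0.46, 0.08 and -0.40 for LYS with IMQ, so the numbers did not pair the libraries.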

Additional observations from a re-analysis of the deposited data

How the results depend on the processing

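Counts of DEGs depended on the thresholds and on single libraries. With a minimum absolute log2 fold change of 1, the DEGs were 4 of the 9 genes and 5772 of all genes in IMQ against control. In LYS against control they were 3 of the 9 and 2910 of all genes. Leaving out each library in turn gave 5 to 8 of the 9 genes in IMQ against control (5 without control 1), with 7372 to 8894 genes of all. In LYS against control it gave 2 to 5 of the 9 (2 without control 1, and 3 without control 2, control 3 or LYS 2), with 2579 to 5072 genes of all. In LYS against IMQ, where edgeR called 0 genes, the count of all genes was 2419 without the low-count filter, 3040 when the 9 libraries were fitted together and 3319 with DESeq2, and that of the pathway list was 14, 15 and 14. Leaving out each library gave 0 to 4262 genes of all and 0 to 14 of the pathway list (14 without LYS 1 and 8 without IMQ 1). The cause was not tested.

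With library totals in place of TMM, the median of all genes moved by -0.45 in IMQ against control, -0.14 in LYS against control and 0.25 in LYS against IMQ (log2). The LYS against IMQ difference was then 1.69 for Has2, 0.53 for Has3 and -0.98 for Cemip. It was -0.07 for Hyal1, 0.06 for Hyal2 and -0.05 for Cd44. The difference of Tnfaip6 between LYS and control, which did not pass the test, ran from -0.39 to 0.22 over the libraries left out and turned sign without LYS 2. The replicate block left 8 of the 9 genes called in IMQ against control and 4 in LYS against control, where Has2 (0.69) and Hyal2 (0.65) lost the call. It called 8044, 3126 and 0 of all genes in the 3 comparisons, against 8145, 4476 and 0 without it. Since the numbers did not pair the libraries, this is given as a count only. Low reads limit Has1 and, less so, Has2.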
